A study of Rattus norvegicus with 4 samples.

Results

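The nuclei described here are cardiac fibroblast nuclei marked by Scara5, Abca8a, C7, C1qtnf7, Adgrd1 and Dlg2, 6 genes that mark fibroblasts of the unstressed interstitium. A nucleus was taken when it held at least 3 unique molecular identifiers (UMIs, each standing for 1 captured RNA molecule) from at least 2 of these genes, when they made up at least 0.3% of its UMIs, and when they outnumbered the UMIs of Adam12, Postn, Col8a1, Hmga2 and Ltbp2, 5 genes of activated fibroblasts. The nuclei were thus chosen by their measured UMIs of these genes, and the levels of these 11 genes are given as a description only. The rule found 2852 nuclei among 31987 kept nuclei of 3 libraries, out of 48637 barcodes in the series. They are called C7/Scara5 fibroblast nuclei below, after the genes that chose them.

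Single nuclei were profiled from rat hearts of the Sprague Dawley strain, with infarct zone as the tissue label of all 4 samples, and with 1 library each for Sham and for MI_1H, MI_6H and MI_24H. No genotype, sex, age or number of animals is given in the labels, and no drug or allele is named. The treatment labels call the hours reperfusion while the series text describes ligations of those lengths and, apart from them, reperfused hearts, so the meaning of the hours stays unclear. The 4 libraries lie in 1 count matrix, where barcode suffixes separate them but no source ties a suffix to a sample. No comparison with Sham or between times was therefore possible, and libraries 1, 3 and 4 are named by suffix alone. Each library is 1 sample with no replicate, so no p-value is given. Intervals are 95% intervals that cover counting error only, exact Poisson for a level, conditional binomial for a ratio and Clopper-Pearson for a share.

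Interstitial fibroblasts lie between the cardiomyocytes and the capillaries and keep up the collagen network that holds the heart wall together. In an uninjured heart they divide rarely and carry receptors such as Pdgfra, the receptor for platelet-derived growth factors, and transcription factors such as Tcf21. After infarction, fibroblasts enter the cell cycle, migrate and take on contractile and matrix-secreting programmes, with Postn (periostin) as a widely used sign of activation. C7 is a component of the membrane attack complex of complement, Scara5 a scavenger receptor for ferritin, Abca8a a lipid transporter, C1qtnf7 a secreted protein of the C1q and TNF family, Adgrd1 an adhesion G protein-coupled receptor and Dlg2 a membrane scaffold protein. In the deposited matrix they carry the identifiers ENSRNOG00000061379 (C7), ENSRNOG00000014398 (Scara5), ENSRNOG00000004147 (Abca8a), ENSRNOG00000005094 (C1qtnf7), ENSRNOG00000023536 (Adgrd1) and ENSRNOG00000022635 (Dlg2).

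Levels are given as CPM, the UMIs of a gene summed over the nuclei of a set, divided by the UMI total of that set and scaled to 1000000. Genes with a mean of at least 20 CPM over the sets compared were set side by side as log2 ratios of (CPM + 10), and a ratio of 2-fold was called. Where 3 values stand together they belong to libraries 1, 3 and 4 in that order, and pairs belong to libraries 3 and 4. The C7/Scara5 fibroblast nuclei held 2691003, 1753905 and 1029751 UMIs in all, with medians of 1130, 2287 and 2323 UMIs and 799, 1575 and 1548 genes per nucleus. Other kept nuclei of the same libraries had medians of 1510.5, 2036 and 2360 UMIs. Mitochondrially encoded genes took 0.118, 1.03 and 1.18% of UMIs in the C7/Scara5 nuclei and haemoglobin genes 0.00609, 0.104 and 0.353%, so library 1 stood apart from the other two in both. Between pairs of libraries, 22 to 78 barcode sequences were shared, 1 of them between C7/Scara5 nuclei of libraries 1 and 3.

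The fibroblast identity held in every library. Of 10 general fibroblast genes, 9 were measured at that level. Among those, 8 were at least 2-fold higher in C7/Scara5 nuclei than in all other kept nuclei in each of libraries 1, 3 and 4, against 2.37% of all genes measured. Dcn, the collagen-binding proteoglycan decorin, stood at 1115, 1975 and 2138 CPM against 123, 542 and 357 CPM in other nuclei. Pdgfra stood at 491, 802 and 579 CPM against 44.4, 287 and 131. Tcf21 stood at 65, 73.6 and 60.2 CPM against 5.43, 21.5 and 15.1. For all 3 genes each of the 3 values in C7/Scara5 nuclei lay above each of those in other nuclei. Col1a1, the main fibrillar collagen chain, was 2-fold higher in libraries 1 and 4 but not in library 3, where it stood at 1662 CPM against 1157. Col1a2 was nearly undetected in every set, at 10.03, 4.56 and 5.83 CPM in the C7/Scara5 nuclei.

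Genes of other cell types were also counted in these nuclei. The summed level of 7 measured cardiomyocyte markers was 3428, 1239 and 1979 CPM in C7/Scara5 nuclei and 22226, 2679 and 4406 CPM in other nuclei. The 7 measured endothelial markers summed to 399, 573 and 857 CPM against 1616, 1301 and 2891 CPM, and the 8 macrophage markers to 92.5, 814 and 479 CPM against 181, 1344 and 598 CPM. None of these 22 markers was at 0 in the C7/Scara5 nuclei. The 8 pericyte markers summed to 919, 482 and 536 CPM against 1289, 448 and 527 CPM in other nuclei. Their sum was thus lower than in other nuclei in library 1 and slightly higher in libraries 3 and 4. Most single pericyte markers were lower in C7/Scara5 nuclei than in other nuclei, 6, 7 and 5 of the 8. The 6 adipocyte markers summed to at most 1.94 CPM, and the 5 measured epicardial markers to between 19.4 and 23.3 CPM. In libraries 3 and 4 the 6 neutrophil markers, which include S100a8 and S100a9, summed to 961 and 548 CPM, close to the 1158 and 547 CPM of other nuclei. Subtracting the profile of the other nuclei until the 22 cardiomyocyte, endothelial and macrophage markers reached 0 removed 16.3, 49.3 and 42.0% of the UMIs. RNA of another cell caught in the same droplet is removed by this step too, so the share can overstate free RNA. Of the C7/Scara5 nuclei, 679 (35.3%), 103 (17.9%) and 76 (21.6%) carried at least 3 UMIs from 2 or more markers of another cell type, at 0.3% of their UMIs or more. No doublet caller was run, and counts without these nuclei are given in the closing section.

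The 2 sets of rule genes were spread unevenly over the nuclei. A C7/Scara5 nucleus held a median of 8, 12 and 14 UMIs of the 6 resting genes, from 3, 4 and 4 of them, and C7 led in 41.7, 65.0 and 55.1% of nuclei. Abca8a was the leading gene in 17.9% of nuclei of library 1 but in 3.13 and 3.69% in libraries 3 and 4. Its level went from 1473 CPM (1427 to 1519) in library 1 to 399 and 524 CPM in libraries 3 and 4, while C7 stood at 2913, 2902 and 2873 CPM. Scara5 stood at 263, 201 and 300.1 CPM and Adgrd1 at 394, 273 and 329 CPM. At least 1 Scara5 UMI was seen in 24.1, 32.3 and 41.2% of nuclei, and in 17.5, 13.4 and 20.9% after every nucleus was thinned to 800 UMIs. In cardiomyocyte-marked nuclei, which should lack it, the shares were 2.65, 2.84 and 4.9% unthinned and 1.11, 0.474 and 0.417% thinned. Those nuclei, 2947, 211 and 245 of them, were defined after the data were seen, by at least 3 cardiomyocyte markers and 2% of UMIs, and had medians of 2659, 3359 and 3903 UMIs. Nuclei that met the resting or activated rule, or also carried endothelial or macrophage marks, were left out of them. Their values for the rule genes were thus limited by the rule itself and are no independent measure of background.

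UMIs of the 5 activated genes were counted too. At least 1 such UMI was present in 43.7, 88.3 and 81.0% of C7/Scara5 nuclei, and in 36.6, 63.5 and 51.5% after thinning. In cardiomyocyte-marked nuclei a Postn UMI was seen in 1.76, 38.9 and 31.8% and a Col8a1 UMI in 5.23, 27 and 18%. Those nuclei were deeper, these shares were not thinned, and the rule limited them. They are thus no independent measure of the background in each library. In the C7/Scara5 nuclei the shares were 11.7, 58.8 and 49.4% for Postn and 33.9, 66.3 and 51.1% for Col8a1. Postn stood at 141, 539 and 379 CPM and Adam12, a membrane metalloprotease, at 51.7, 338 and 169.9 CPM. Ltbp2, a matrix protein that binds fibrillin, stood at 11.5, 144 and 111 CPM. Hmga2, a chromatin protein of proliferating mesenchyme, had 1 UMI among the 1925 nuclei of library 1 and 49 and 21 UMIs in libraries 3 and 4, where its level was 27.9 and 20.4 CPM. Col8a1, a short-chain collagen, stood at 604, 924 and 568 CPM and so was not lowest in library 1. Cardiomyocyte-marked nuclei were also lowest in library 1, with Postn at 7.1, 148 and 104 CPM, Adam12 at 3.71, 47.3 and 34.3 CPM and Ltbp2 at 0.636, 28.1 and 26.2 CPM. These genes were part of the rule, so whether the word resting describes the nuclei of the 3 libraries equally was not tested. The threshold left out 281, 142 and 56 nuclei with 2 resting UMIs from 2 genes, whose Dcn level was 301, 514 and 497 CPM. The 152, 12 and 4 nuclei just inside it, with exactly 3 resting UMIs, had 866, 977 and 1631 CPM of Dcn. A further 66, 195 and 49 nuclei had enough resting UMIs but as many or more activated UMIs, and stood at 1289, 1156 and 1250 CPM of Dcn. The cut at 0.3% of UMIs left out 376, 612 and 234 nuclei with at least 3 resting UMIs from at least 2 genes. They had medians of 2977, 4054 and 5811.5 UMIs and 373, 924 and 776 CPM of Dcn.

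**Figure D1:**
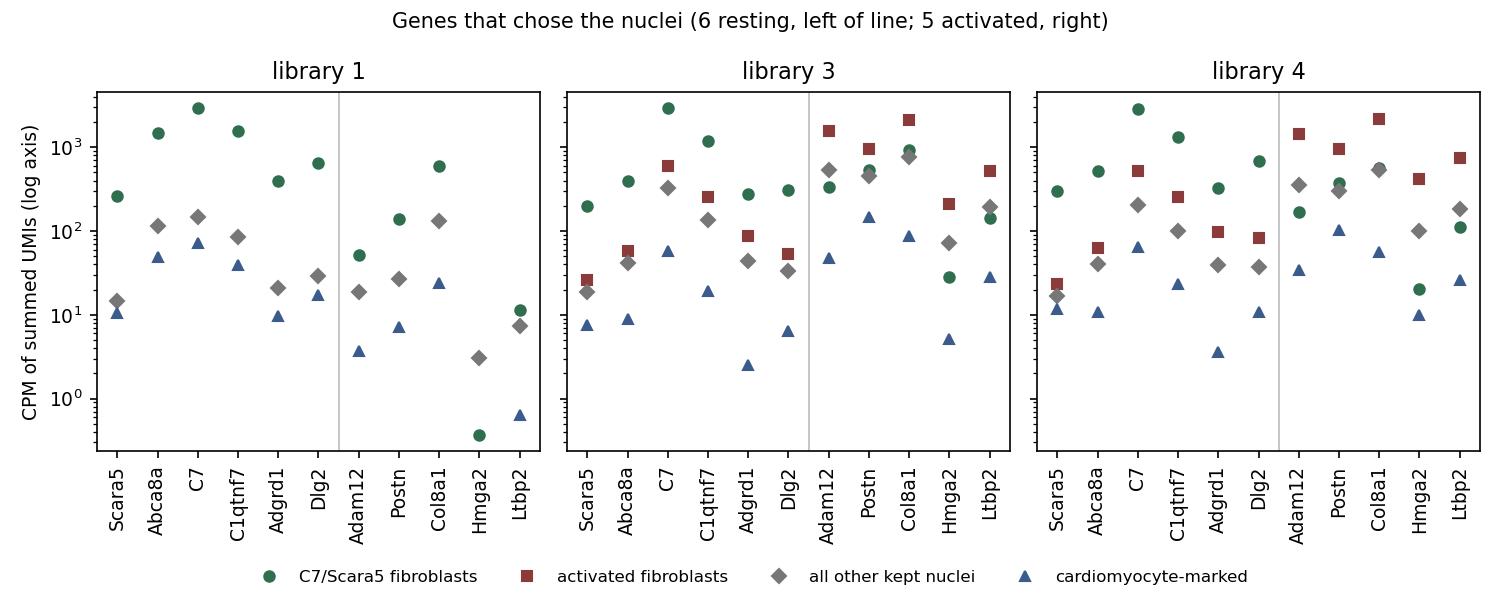
Levels of the 11 rule genes (CPM on a log axis) in C7/Scara5 fibroblast nuclei, activated fibroblast nuclei, all other kept nuclei and cardiomyocyte-marked nuclei of each library; values of 0 are not drawn and activated fibroblasts are not shown for library 1, which held 57. C7 lies near 2900 CPM in the C7/Scara5 nuclei of each library, while Adam12 and Ltbp2 lie higher in libraries 3 and 4 than in library 1.

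C7/Scara5 nuclei were most frequent in library 1. They made up 21.4% (20.5 to 22.2%) of 9013 kept nuclei in library 1, 3.49% (3.22 to 3.79%) of 16453 in library 3 and 5.40% (4.86 to 5.97%) of 6521 in library 4, which is 1925, 575 and 352 nuclei. Activated fibroblast nuclei, taken by the mirror image of the same rule, numbered 57, 2706 and 721, or 0.632, 16.4 and 11.1% of kept nuclei. Of both kinds together, the C7/Scara5 nuclei were 97.1, 17.5 and 32.8 in 100. The 2 kinds of fibroblast nucleus thus stood in opposite order across the libraries. With every nucleus thinned to 800 UMIs before the rule was applied, which left out 2012, 0 and 654 shallower nuclei, the C7/Scara5 shares were 19.6, 3.36 and 5.39%. These are shares of all nuclei recovered, and each also depends on how many nuclei of other types a library held. Each unthinned share depends too on the cut at 0.3% of UMIs, which left out 376, 612 and 234 nuclei. In library 3 that was more than the 575 taken. The sets were cut by the same 11 genes, so the shift between them is a description.

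**Figure D2:**
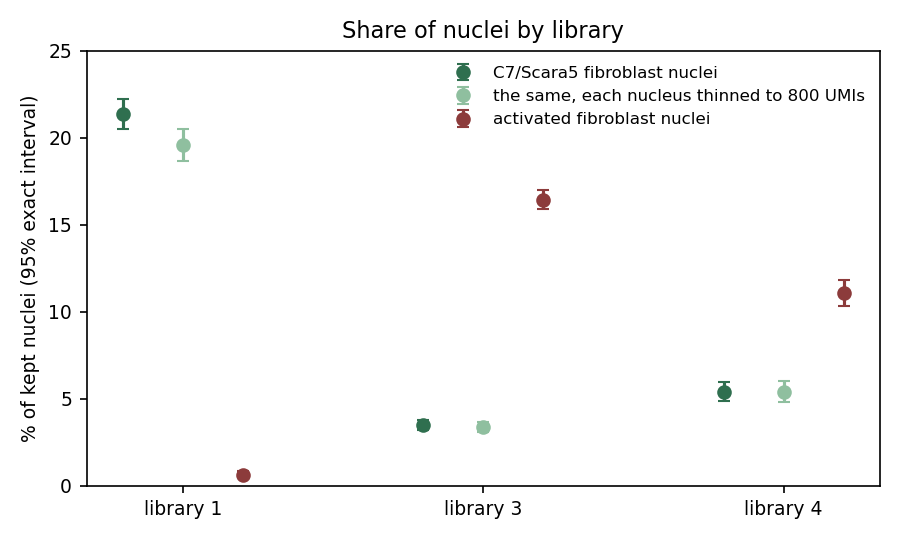
Share of kept nuclei (per cent, exact 95% binomial interval, counting error only) for C7/Scara5 fibroblast nuclei, the same after thinning to 800 UMIs, and activated fibroblast nuclei, by library. C7/Scara5 nuclei are 21.4% of library 1 and 3.49 and 5.40% of libraries 3 and 4, where activated nuclei are 16.4 and 11.1%.

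Against all other nuclei of the same library, the C7/Scara5 nuclei held more of the general fibroblast genes given above, of 7 of 16 small proteoglycan and elastic fibre genes, of 3 of 7 complement genes and of 7 of 13 adhesion and channel genes better known from neurons. Of 8272 genes, 196 (2.37%) were higher in C7/Scara5 nuclei in all 3 libraries and 137 (1.66%) were lower. Within single libraries, 814 (9.84%), 229 (2.77%) and 336 (4.06%) genes were higher and 664 (8.03%), 176 (2.13%) and 365 (4.41%) lower. Library 3 decided both counts over all 3 libraries, which were 307 and 287 without it. The rule chose the nuclei on this contrast, so it describes them and tests nothing. The median of all genes was 0.26 on the log2 scale in library 1 and -0.07 with median-of-ratios scaling, and lay within 0.06 of 0 in libraries 3 and 4 with either scaling. Differences in library 1 are thus best read against that shift.

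Ranked by the smallest of the 3 log2 ratios, Aox3, an aldehyde oxidase, came first. Its level was 394, 169 and 291 CPM in C7/Scara5 nuclei and 30.4, 11.4 and 13.5 CPM in other nuclei, a ratio of 13-fold (11.6 to 14.5), 14.8-fold (12.8 to 17.1) and 21.6-fold (18.4 to 25.5). An Aox3 UMI was seen in 29.6, 23.3 and 34.9% of C7/Scara5 nuclei and in 2.78, 0.948 and 0% of cardiomyocyte-marked nuclei. Fmo2, an oxidising enzyme of xenobiotics, showed the same order, at 279, 87.8 and 169.9 CPM against 56.9, 20.5 and 43.7. Among lipid-modifying enzymes, the secreted phospholipase Pla2g2a stood at 215, 109 and 444 CPM against 17.3, 16.1 and 39.6. Enpp2, the autotaxin that makes lysophosphatidic acid, stood at 192, 74.7 and 139.8 CPM against 16.2, 10.5 and 9.96. All 4 enzymes were lowest in library 3, and Pla2g2a was highest in library 4 and the others in library 1. Gfpt2, the first enzyme of the hexosamine pathway that feeds glycosaminoglycan synthesis, stood at 366, 345 and 573 CPM against 28.3, 89.8 and 81.7.

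Matrix genes among the 24 named by size of difference included the following. Ccdc80, a secreted matrix-associated protein, stood at 1215, 1952 and 1900.5 CPM against 121, 475 and 307. Htra3, a secreted serine protease, stood at 534, 216 and 392 CPM against 51.7, 40.5 and 49.4, and Adamts5, which cleaves aggrecan and versican, at 343, 302 and 371 CPM against 39.9, 70.0 and 54.8. Col6a6 and Col14a1, chains of microfibrillar and fibril-associated collagens, were also among them. Col6a6 stood at 444, 132 and 218 CPM against 44.8, 26.5 and 21.3, and Col14a1 at 484, 373 and 334 CPM against 50.0, 97.2 and 53.1. Col4a3, a chain of the basement membrane collagen IV, stood at 745, 211 and 349 CPM against 118, 48.4 and 53.3, and its usual partner Col4a4 at 608, 222 and 302 against 83.9, 60.6 and 47.9. For each of these genes the C7/Scara5 value of a library was at least 3 times that of its other nuclei. Of the fibrillar collagens and their assembly enzymes, 2 of 19 measured genes passed 2-fold in all 3 libraries, Col3a1 and Col14a1. The list's medians were 2.30, 0.59 and 0.77 on the log2 scale. Of the small proteoglycans and elastic fibre genes 7 of 16 passed, with medians of 1.73, 0.73 and 1.27, among them Mgp, an inhibitor of calcification, at 1146, 2537 and 3371 CPM against 144, 839.9 and 1000.2. None of either list was lower.

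**Figure D3:**
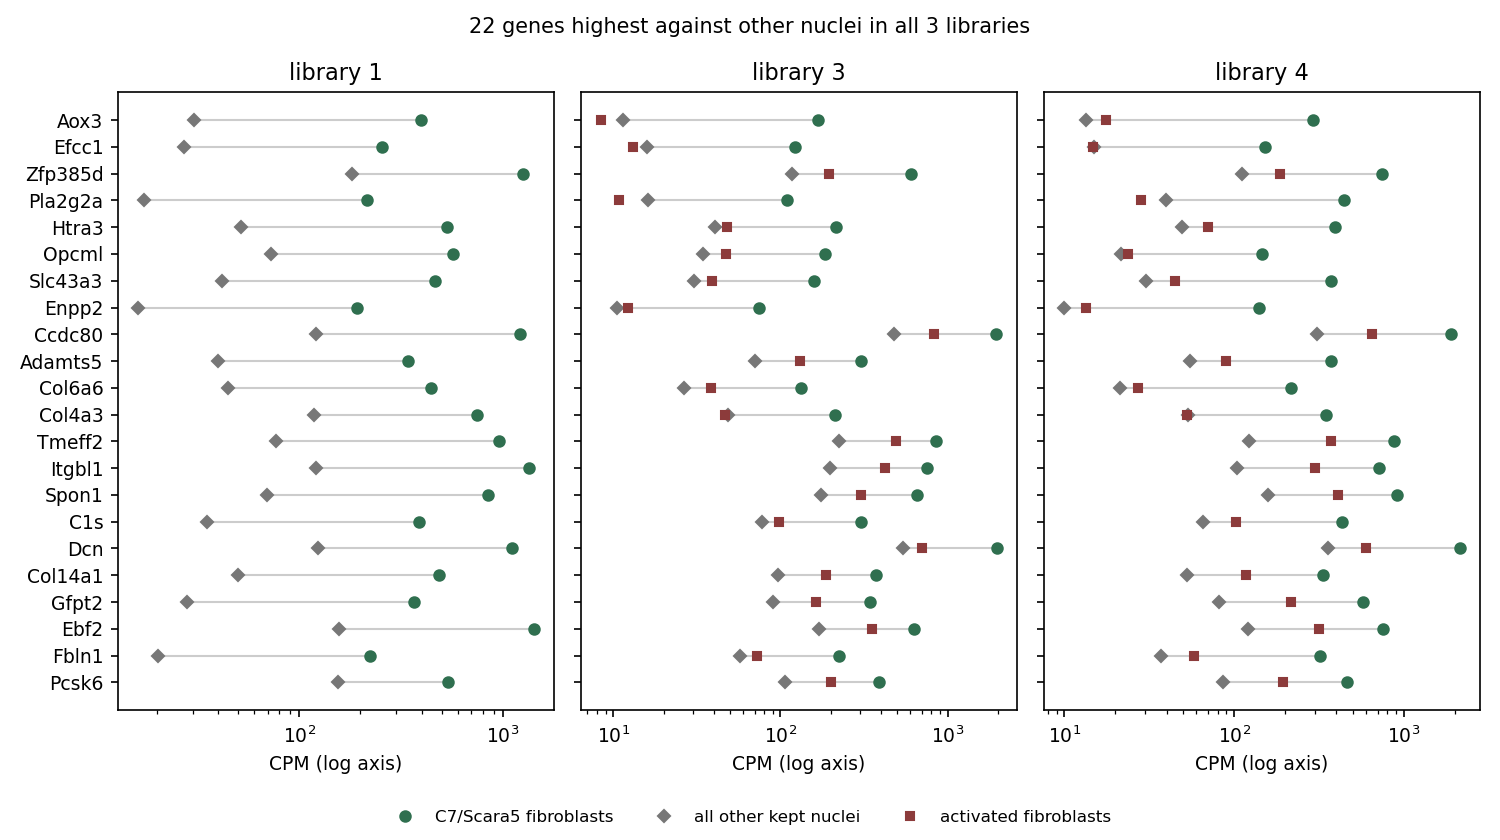
Levels (CPM, log axis) of 22 of the 24 genes ranked highest by the smallest of the 3 log2 ratios of C7/Scara5 fibroblast nuclei over all other kept nuclei, by library, with activated fibroblast nuclei for libraries 3 and 4. Each green point lies to the right of the grey one, and for Aox3, Efcc1 and Enpp2 the activated nuclei lie with the other nuclei.

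Complement genes were part of the profile beyond C7 itself. C1s, a protease of the first complement component, stood at 387, 304 and 434 CPM against 35.5, 77.4 and 65.2, and its partner C1r at 260.5, 539 and 633 CPM against 26.8, 212 and 137. Serping1, the inhibitor of both, stood at 47.6, 136 and 209.8 CPM against 5.37, 44 and 38.1. These were the 3 of 7 measured complement genes that passed 2-fold in all 3 libraries.

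Adhesion, guidance and channel genes of neurons formed another list. Of 13 measured genes of that list, 7 were higher and 1, Lrrtm3, was lower in all 3 libraries, and the list's medians were 2.04, 1.16 and 1.26. With no filter on low levels the median in library 4 turned to -0.051. Opcml, a lipid-anchored adhesion molecule, stood at 572, 185 and 146 CPM against 73, 34.3 and 21.4. Robo1, a receptor for Slit ligands, stood at 476, 299.9 and 312 CPM against 55.3, 129 and 102, and Kcnn3, a calcium-activated potassium channel, at 264, 65.6 and 89.3 against 36.3, 16.5 and 17.9. The 6 Schwann cell markers, counted because such genes are also made by nerve support cells, summed to 144, 42.8 and 44.7 CPM in C7/Scara5 nuclei against 81.2, 17.3 and 32.7 CPM in other nuclei. Of those markers 1, 3 and 4 were at 0 in the C7/Scara5 nuclei, and 3, 4 and 5 of the 6 were lower there than in other nuclei. The part of these markers in the result was not tested.

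Ligands and receptors gave a short list. Of 25 measured growth factors and cytokines 4 were higher, Fgf10, Vegfd, Angptl1 and Rarres2, and 1, Nrg1, was lower. Vegfd, a ligand of lymphatic and blood vessel receptors, was level across libraries at 178, 187 and 188 CPM against 17.5, 53.6 and 28.1 in other nuclei. Fgf10, a ligand for epithelial and mesenchymal growth, stood at 106, 46.2 and 60.2 CPM against 10.9, 8.13 and 6.24, and Angptl1 at 91.4, 69.6 and 59.2 CPM against 13.9, 22.2 and 17.4. Igf1 fell just short of the call in library 3, at 447, 224 and 354 CPM against 61.4, 113 and 58.4. Nrg1, the endothelial ligand of ErbB receptors, was low, at 5.2, 25.1 and 12.6 CPM against 101, 90.2 and 159. Of 22 measured receptors 3 were higher. Pdgfra is given above, and the neurotrophin receptor Ntrk3, also among them, stood at 126, 55.9 and 63.1 CPM against 20.0, 15 and 21.8. Of 25 measured transcription factors 4 were higher, Tcf21, Ebf2, Zeb1 and Nfia, and Meox2 was lower. Ebf2, a factor of mesenchymal progenitors, stood at 1419, 628 and 749.7 CPM against 157, 171 and 121. Of 21 measured genes of the TGF-beta and BMP pathway, 1 was higher, the co-receptor Tgfbr3, at 988, 657 and 944 CPM against 293, 237 and 277.

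Several of the 8 genes lowest against other nuclei are known from muscle. Myocd, the co-activator of smooth and cardiac muscle genes, stood at 97.4, 30.2 and 37.9 CPM against 699, 139.6 and 232. Dmd (dystrophin) stood at 1186, 365 and 712 CPM against 6730.3, 1248 and 2447, and Sorbs2, a Z-disc adaptor, at 252, 166 and 311 CPM against 1377, 586 and 1115. Ryr3, Dysf, Xirp2 and the genes Shank3 and Cyyr1, which are not muscle genes, completed the 8, with log2 ratios between -2.71 and -1.60. Levels of these genes were far from 0 in C7/Scara5 nuclei, as were the cardiomyocyte markers given above.

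Activated fibroblasts of libraries 3 and 4 were the other fibroblast set of these data. Both sets were cut on the same 11 genes, so this contrast too is a description. Of 8458 genes measured at a mean of 20 CPM or more, 110 (1.3%) were at least 2-fold higher in C7/Scara5 nuclei in both libraries and 35 (0.414%) were lower. Library 3 decided these counts as well, since library 4 alone gave 203 and 214. Of the 10 highest genes named by this contrast, 8 were also among the 24 named against all other nuclei. Aox3 stood at 169 and 291 CPM against 8.43 and 17.6 CPM in activated fibroblasts, a ratio of 20.0-fold (15.9 to 25.4) and 16.5-fold (12.5 to 22.1). Pla2g2a stood at 109 and 444 CPM against 10.8 and 28.1. Mgp stood at 2537 and 3371 CPM against 738 and 953. Dcn was higher by 2.81-fold (2.7 to 2.92) and 3.59-fold (3.38 to 3.81), and Pi16, a peptidase inhibitor that marks adventitial fibroblasts, by 3.11-fold (2.71 to 3.57) and 4.94-fold (4.1 to 5.95). Of the 16 small proteoglycan and elastic fibre genes 4 were higher than in activated fibroblasts, with medians of 0.36 and 0.49, and of 7 complement genes 2, C1s and Serping1, with medians of 0.94 and 0.83.

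The 35 genes lower than in activated fibroblasts included 7 of the myofibroblast list. Of 18 measured genes of the myofibroblast list 7 were lower and none was higher, with medians of -0.82 and -0.72, against -0.04 and -0.06 over all genes. Tnc, the scar matrix protein tenascin C, stood at 97.5 and 56.3 CPM against 370.0 and 523 CPM, which was 3.8-fold (3.26 to 4.45) and 9.28-fold (7.14 to 12.3) higher in activated nuclei. Ccn2, a matricellular target of TGF-beta, stood at 163 and 201 CPM against 441 and 582, and the transcription factor Runx1 at 262 and 195 CPM against 598 and 531. Kif26b, a kinesin family member, came first by the naming rule, at 30.2 and 21.4 CPM against 153 and 152. For each of these 4 genes both activated values lay above both C7/Scara5 values. Fibrillar collagens and their assembly enzymes gave no such split, with 0 of 19 genes called in either direction and medians of -0.24 and -0.31. Col1a1, at 1662 and 1224 CPM against 2080.4 and 1441, and Col3a1, at 5401 and 3436 against 4427 and 2994, differed by less than 1.5-fold. Of 17 measured cell cycle genes none was called in both libraries, with medians of -0.59 and -1.34.

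Between libraries, the C7/Scara5 nuclei of libraries 3 and 4 differed from those of library 1 mainly by higher levels of many genes. Of 8129 genes measured, 1290 (15.9%) were at least 2-fold higher in library 3 than in library 1 and 341 (4.19%) lower. In library 4 against library 1, 1087 (13.4%) were higher and 152 (1.87%) lower. Both libraries lay above library 1 for 981 genes (12.1%) and below it for 130 (1.6%). Most of these genes also stood higher in the other nuclei taken as 1 pool. The make-up of that pool differed between libraries, with cardiomyocyte-marked nuclei at 2947 of 7088, 211 of 15878 and 245 of 6169. The pool was not split by cell type for this count. Of the 981 genes, 903 (92.0%) were also at least 2-fold higher in the other nuclei of both libraries, and of the 130 lower genes 71 (54.6%) were also lower there. The share of all 8129 genes that differed so in other nuclei is not given, so these 2 shares have no background beside them. The median of all genes was 0.05 and 0.07 on the log2 scale and -0.08 and -0.05 with median-of-ratios scaling, a shift of just over 0.1, and the counts then were 1118 and 468 for library 3 and 947 and 225 for library 4. Depth per nucleus, the mitochondrial share and the subtracted share of free RNA all differed between library 1 and the other libraries, and their part in these differences was not tested. With every nucleus thinned to 800 UMIs, 1310 and 375 genes were called for library 3 and 1115 and 260 for library 4.

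The 10 genes lowest in library 1 stood higher in libraries 3 and 4 in the pooled other nuclei too. Timp1, the inhibitor of matrix metalloproteases, stood at 12.6, 834 and 554 CPM in C7/Scara5 nuclei, a ratio of 66-fold (47 to 95.7) for library 3 and 43.8-fold (31 to 63.9) for library 4. In other nuclei it stood at 4.52, 732 and 484 CPM, and in cardiomyocyte-marked nuclei at 2.54, 378 and 232 CPM. Every set thus moved in the same order, and the C7/Scara5 level of libraries 3 and 4 was 1.14 times that of other nuclei in each. After subtraction of the profile of other nuclei and new scaling of the UMIs left, Timp1 stood at 14.2, 925 and 596 CPM. This step can hardly lower a gene that is higher in C7/Scara5 nuclei than in other nuclei. The values therefore do not tell how much Timp1 RNA was free. The remaining genes were the interferon-induced membrane proteins Ifitm1, Ifitm2 and Ifitm3, the chaperone Calr, S100a6, the lubricating proteoglycan Prg4, Pebp1, the proteoglycan Bgn and the translocon subunit Sec61b. Ifitm3 stood at 28.6, 444 and 470.0 CPM against 21.3, 358 and 466 in other nuclei. Bgn, biglycan, stood at 58.3, 568 and 347 CPM against 12.6, 435 and 242. For all 10 genes the C7/Scara5 level was between 1.01 and 1.505 times that of the other nuclei in libraries 3 and 4. The naming rule took only genes at least as high there as in other nuclei, so the lower end was set in advance. Spp1 (osteopontin), abundant in recruited macrophages, was likewise high in both sets of nuclei of libraries 3 and 4. It stood at 18.2, 3063 and 1189 CPM in C7/Scara5 nuclei and at 18.9, 4239.8 and 1529 CPM in other nuclei.

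**Figure D4:**
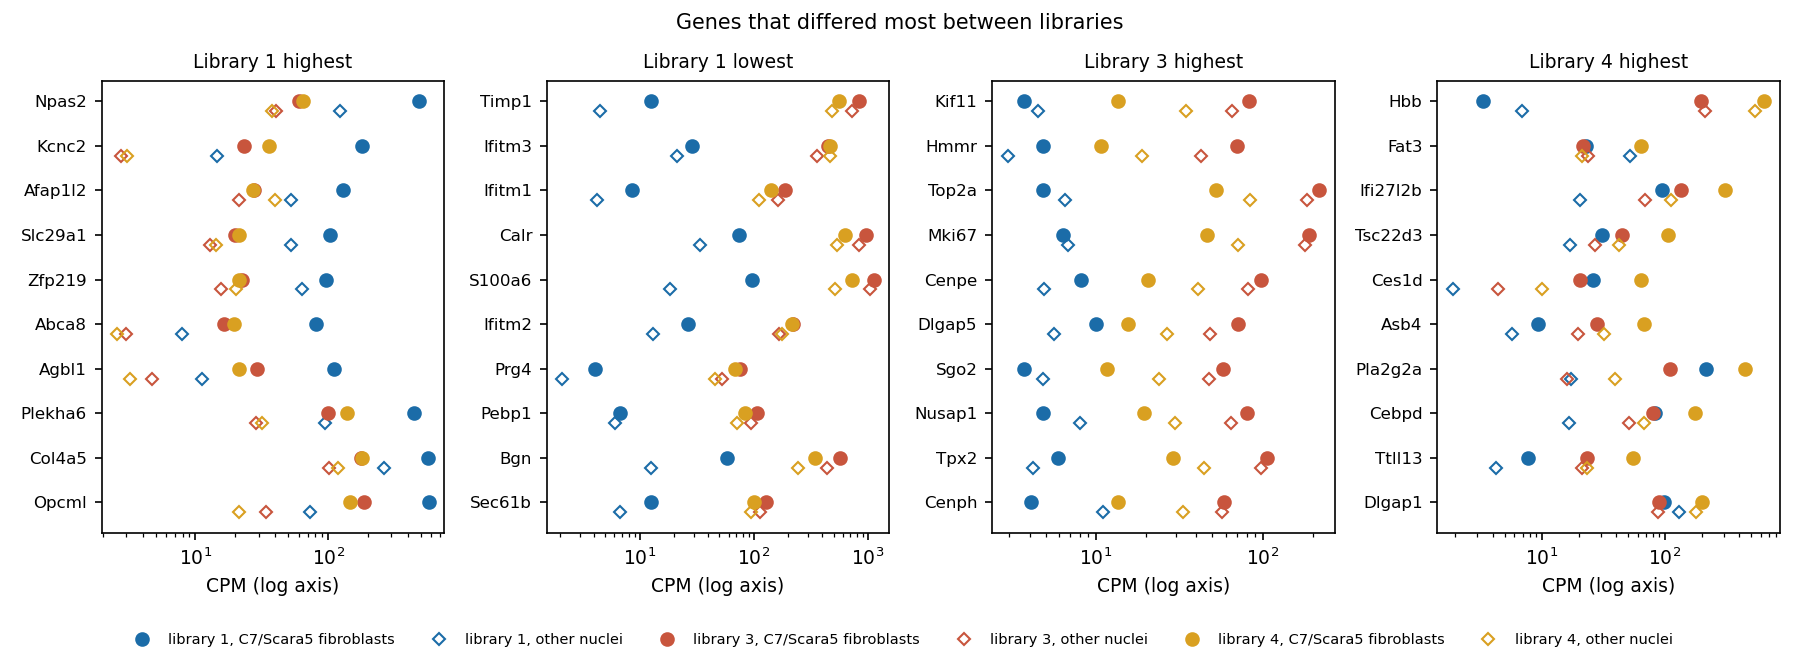
Levels (CPM, log axis) in C7/Scara5 fibroblast nuclei (filled) and other kept nuclei (open) of the genes that differed most between libraries, in 4 groups of 10. For genes lowest in library 1 the filled and open points of libraries 3 and 4 lie together, while Npas2, Kcnc2 and Opcml of library 1 lie to the right of every other point in their row.

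Genes highest in library 1 were led by Npas2, a circadian transcription factor that pairs with Bmal1. It stood at 482, 60.4 and 65.1 CPM in C7/Scara5 nuclei, 7.97-fold (6.54 to 9.82) higher in library 1 than in library 3 and 7.41-fold (5.79 to 9.62) higher than in library 4. In other nuclei it stood at 122, 40.4 and 38 CPM, also highest in library 1. Npas2 UMIs were seen in 36.7, 11.7 and 12.5% of C7/Scara5 nuclei, in 26.5, 14.7 and 18.8% of cardiomyocyte-marked nuclei and in 4.04, 1.69 and 2.03% of endothelial-marked nuclei. Kcnc2, a voltage-gated potassium channel, stood at 181, 23.4 and 35.9 CPM against 14.5, 2.76 and 3.05, and Plekha6 at 445, 100.3 and 139 CPM against 95.4, 28.5 and 31.6. Abca8, a close relative of the rule gene Abca8a, stood at 81, 16.5 and 19.4 CPM against 7.92, 2.98 and 2.57, and reads of such near relatives may be split between them. Slc29a1, which carries adenosine across the membrane, stood at 103, 20.0 and 21.4 CPM against 52.4, 12.9 and 14.3. Of the 12 measured neural adhesion and channel genes 6 were lower in both libraries 3 and 4 and none higher, with medians of -1.19 and -1.31. Of all genes measured, 1.6% were lower in both and 12.1% higher. Opcml was 3.1-fold (2.74 to 3.5) higher in library 1 than in library 3 and 3.93-fold (3.32 to 4.67) higher than in library 4. Lsamp and Kcnd3, also among the 6, were more abundant in other nuclei of library 1 than in C7/Scara5 nuclei, at 279 and 411 CPM against 45 and 53.5 CPM.

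Protein folding genes were among the lists with the most calls between libraries. Of 17 measured heat shock and unfolded protein response genes, 11 were higher in both libraries 3 and 4 than in library 1 and none lower, with medians of 2.11 and 1.74. Of all genes measured, 12.1% were higher in both and 1.6% lower. Hspa5 (BiP), the main chaperone of the endoplasmic reticulum, stood at 109, 839 and 536 CPM, a ratio of 7.71-fold (6.8 to 8.77) and 4.92-fold (4.27 to 5.69). Hsp90b1 (GRP94) stood at 126, 855 and 601 CPM and Calr (calreticulin), which was named by another rule and is not of the list, at 74, 965 and 631 CPM. Xbp1, the transcription factor that drives chaperone genes, was not called, at 24.2, 22.8 and 35 CPM, nor was Ddit3, at 46.1, 69.6 and 55.4 CPM. Hspb1, a small cytosolic chaperone, stood at 11.5, 275 and 238 CPM. In other nuclei Hspa5 stood at 46.5, 765 and 562 CPM, Hsp90b1 at 55.2, 807 and 553 CPM and Calr at 33.6, 838 and 531 CPM, so other nuclei of libraries 3 and 4 stood higher than those of library 1 as well. Against activated fibroblasts none of 18 measured genes of the list was called.

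Since the reticulum chaperones stood high together, their promoters were searched for the endoplasmic reticulum stress element, the classical binding site of ATF6 with NF-Y. The letters searched were CCAAT, then any 9 bases, then CCACG, on both strands, in RefSeq windows from 250 bases before to 50 after each gene's start on the build GRCr8. The element was present in 22 of 33469 windows (0.0657%) and in 4 of 19 genes with a window among the 21 looked for, namely Hspa5, Hsp90b1, Calr and Xbp1. The genes looked for were the 20 of the list and Calr, which was added to them. Both the element and the genes were chosen with the levels known, so these counts are a description and no test. The windows of these 4 genes are shown because the first 3 carry the difference between libraries and Xbp1 does not. Each lies upstream of the transcription start, is printed 5′ to 3′ on the strand of the gene and has the element in capitals. The stretch of Hspa5 is chr3:38452938-38453015 (plus strand, element from 43 bases before the start), and the 2 of Hsp90b1 are chr7:23012312-23012400 and chr7:23012416-23012504 (minus strand, from 72 bases before the start in reverse orientation and from 176 before it in forward orientation). That of Calr is chr19:40213117-40213188 (plus strand, reverse orientation, from 232 before the start) and that of Xbp1 is chr14:84604523-84604611 (plus strand, from 65 before the start).
Hspa5: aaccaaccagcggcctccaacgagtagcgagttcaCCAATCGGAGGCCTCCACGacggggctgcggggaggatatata
Hsp90b1 proximal: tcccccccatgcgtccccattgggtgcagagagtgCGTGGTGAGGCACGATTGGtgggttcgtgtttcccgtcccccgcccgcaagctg
Hsp90b1 distal: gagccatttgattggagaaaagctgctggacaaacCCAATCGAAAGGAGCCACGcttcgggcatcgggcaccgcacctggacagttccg
Calr: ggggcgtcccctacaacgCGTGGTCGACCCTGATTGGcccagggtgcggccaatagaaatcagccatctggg
Xbp1: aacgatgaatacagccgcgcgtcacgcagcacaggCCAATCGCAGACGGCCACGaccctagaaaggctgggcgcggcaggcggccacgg
A match of letters is a description of the sequence and not a measured binding site. Genes whose window lacks these letters also stood higher, among them Pdia4, at 22.7, 110.0 and 90.3 CPM, and Sdf2l1, at 4.46, 52.5 and 43.7 CPM, both chaperone partners of the reticulum.

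The cell cycle list had its highest summed level in library 3, with 83.2, 1286 and 442 CPM in the C7/Scara5 nuclei. Other nuclei held 64.6, 1164 and 634 CPM, which was less in libraries 1 and 3 and more in library 4. Of 14 measured cell cycle genes 14 were higher in library 3 than in library 1 and 9 in both libraries 3 and 4, with medians of 2.36 and 1.41. The shares of all genes measured were 15.9% and 12.1%. Top2a, which untangles DNA before division, stood at 4.83, 218 and 52.4 CPM and Mki67, a protein of dividing nuclei, at 6.32, 190.4 and 46.6 CPM. Of the same 14 genes, 6 were lower in library 4 than in library 3, with a median of -0.94, against 0.775% of all genes measured. The 10 genes highest in library 3 were Kif11, Hmmr, Top2a, Mki67, Cenpe, Dlgap5, Sgo2, Nusap1, Tpx2 and Cenph, all genes of the spindle or the dividing chromosome, and 4 of them are in the list. Kif11, a spindle motor, stood at 3.72, 83.2 and 13.6 CPM. The share of C7/Scara5 nuclei with at least 5 UMIs of the list was 0.364% (0.146 to 0.748%) in library 1, 16% (13.1 to 19.3%) in library 3 and 4.26% (2.40 to 6.93%) in library 4. In all other nuclei it was 0.607, 18.7 and 11.4%, inside the interval of the C7/Scara5 nuclei in libraries 1 and 3 and above it in library 4. In activated fibroblasts of libraries 3 and 4 it was 50.3 and 39.7%, and in cardiomyocyte-marked nuclei 0.136, 4.27 and 2.04%. After thinning to 800 UMIs, at least 3 list UMIs were present in 0.331, 8 and 2.33% of C7/Scara5 nuclei, in 0.346, 8.28 and 4.02% of other nuclei and in 0.0347, 0.948 and 0% of cardiomyocyte-marked nuclei, where 0 of 240 nuclei has an exact interval up to 1.53%. Nuclei with at least 5 list UMIs held 72.1% of the list's UMIs in the C7/Scara5 nuclei of library 3 and 43.7% in library 4.

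Many genes of the myofibroblast list were higher in libraries 3 and 4 than in library 1. The shares of all genes called in both, 12.1% higher and 1.6% lower, stand beside each list of this paragraph. Of 4 measured smooth muscle markers none was higher in both, with medians of -0.32 and -0.13. Of 17 measured myofibroblast genes 11 were higher in both and none lower, with medians of 1.73 and 1.57. Against other nuclei of libraries 3 and 4 the medians of this list were -0.52 and -0.36. Fn1 (fibronectin) stood at 60.2, 1275 and 632 CPM, Ccn2 at 24.2, 163 and 201 CPM and Lox, which cross-links collagen, at 22.7, 129 and 126 CPM. Other nuclei held 41.6, 1833 and 841 CPM of Fn1, above the C7/Scara5 nuclei in libraries 3 and 4. With the profile of other nuclei subtracted, the cytoskeletal cross-linker Actn1 stood at 112, 56.5 and 106 CPM against 109, 240.0 and 284 before, so it was no longer higher than in library 1, whereas Fn1 stood at 63.7, 725 and 475 CPM and Lox at 26.1, 116 and 149.5 CPM. Of 16 measured small proteoglycans and elastic fibre genes 8 were higher and none lower, with medians of 1.13 and 1.00. Among the fibrillar collagens and assembly enzymes, Col1a1, Lox and the collagen chaperone Serpinh1 were higher, Col5a3 was lower, and the other 15 of 19 were not called in both. Col1a1 stood at 405, 1662 and 1224 CPM, 4.1-fold (3.82 to 4.4) and 3.02-fold (2.78 to 3.28) above library 1. After subtraction and new scaling of the UMIs left, it stood at 472, 2134 and 1672 CPM. As with Timp1, the step can hardly lower a gene that is higher in C7/Scara5 nuclei than in other nuclei. Of 17 basement membrane genes Sparc was higher, while Col4a3, Col4a5 and Lama2 were lower. Lama2, the laminin chain of muscle and interstitial basement membranes, stood at 4148, 1799 and 1966 CPM against 2595, 661 and 607 in other nuclei. The fibrillar list had medians of 0.08 and -0.14 and the basement membrane list -0.55 and -0.56. Col1a1 and Col4a3 stood in opposite order across the libraries.

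Some complement and adventitial genes kept a lead over other nuclei while standing higher in libraries 3 and 4. Of 7 complement genes 4 were higher in both, among them C1r, Serping1 and Clu, with list medians of 1.02 and 1.25. Serping1 was 2.85-fold (2.29 to 3.56) and 4.41-fold (3.53 to 5.53) above library 1, and C1r 2.07-fold (1.88 to 2.29) and 2.43-fold (2.18 to 2.71). Clu (clusterin), unlike C1r and Serping1, was lower in C7/Scara5 nuclei than in other nuclei of each library, at 26.4, 74.1 and 123 CPM against 105, 131 and 177. Of 10 adventitial genes Cd248 and Mfap5 were higher in both. Beside the complement and adventitial counts stands the share of all genes higher in both libraries, 12.1%. Pi16 rose past 2-fold in library 4 only, at 84.7, 178 and 275 CPM, with log2 ratios of 0.99 and 1.59.

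**Figure D5:**
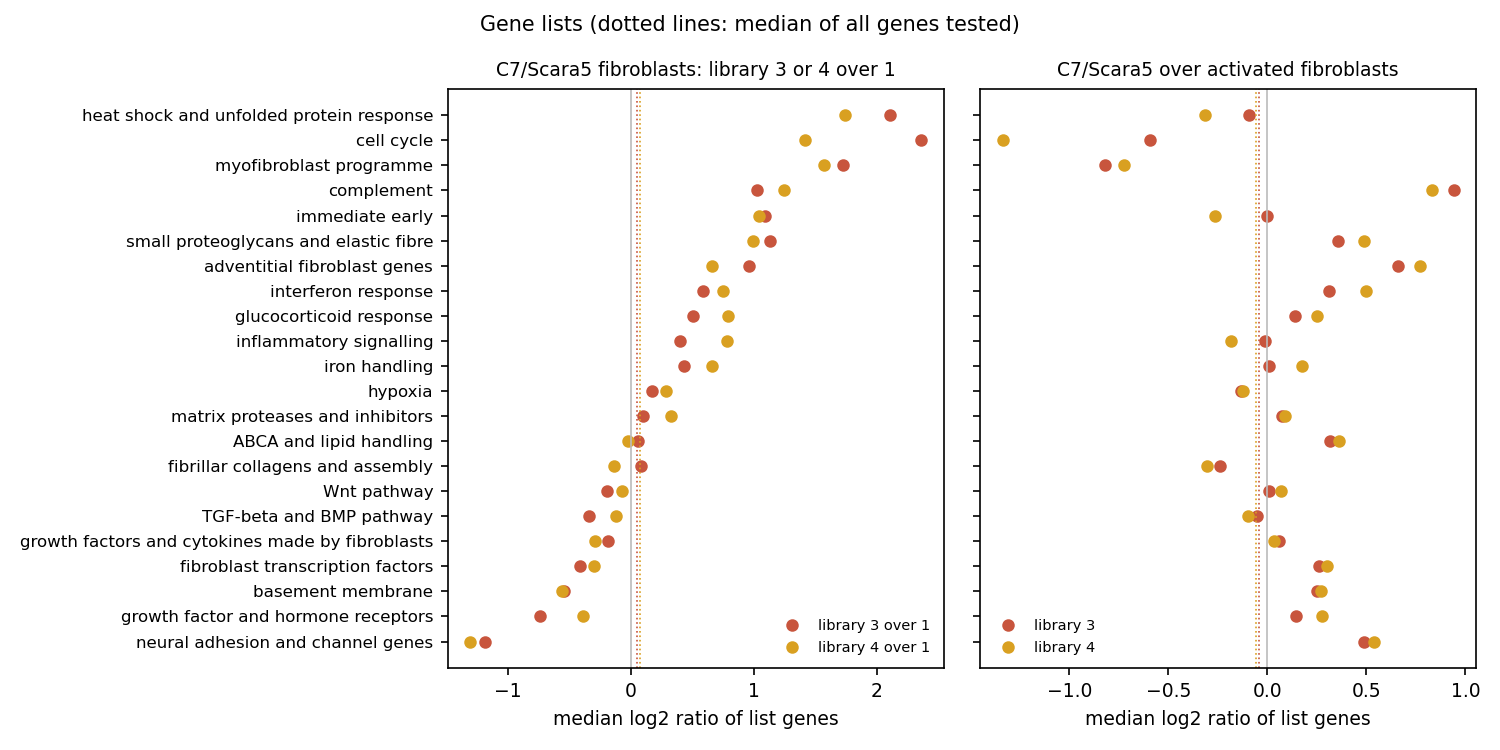
Median log2 ratio of the measured genes of each of the 22 lists, for C7/Scara5 fibroblast nuclei of library 3 or 4 over library 1 (left) and over activated fibroblast nuclei of the same library (right), with dotted lines at the median of all genes measured. Heat shock, cell cycle and myofibroblast genes lie farthest right on the left panel and neural adhesion genes farthest left, while on the right panel complement genes lie highest and cell cycle and myofibroblast genes lowest.

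Among signalling and stress genes, the shares of all genes called in both libraries, 12.1% higher and 1.6% lower, stand beside the counts of each list. Of 19 measured inflammatory genes 5 were higher in both libraries 3 and 4, Ccl2, Ccl7, Cxcl12, Il18 and Icam1. Ccl2, which draws monocytes, stood at 15.6, 198 and 134 CPM against 9.55, 282 and 149 in other nuclei. Of 15 immediate early genes 8 were higher, including Jun, Atf3 and Klf4, and none lower in both. Klf4 stood at 34.6, 85 and 123 CPM and Jun at 22.7, 80.4 and 63.1 CPM. Of 15 hypoxia genes 5 were higher, all of them for glucose use or stress, such as Ldha, at 26, 249 and 195 CPM, and Hk2, at 36.4, 137 and 100.02 CPM. Vegfa was the 1 hypoxia gene that was lower, at 739.9, 92.9 and 185 CPM against 2464, 98.6 and 203 in other nuclei, and its level in library 1 was higher in other nuclei than in C7/Scara5 nuclei. Of 8 iron genes the ferritins Fth1 and Ftl1 and the haem oxygenase Hmox1 were higher, with Fth1 at 47.9, 641 and 445 CPM against 42.1, 752 and 416. Of 9 interferon genes Ifit1bl and Ifi27 were higher. Of 12 glucocorticoid response genes Glul, Mt1 and Mt2A were higher and Errfi1, a brake on EGF receptor signalling, was lower, at 450.0, 89.5 and 205 CPM.

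The counts of ligands, receptors and factors stand against the same shares of all genes, 12.1% higher and 1.6% lower. Of 21 ligands 4 were higher, Angptl4, Cxcl12, Rarres2 and Slit3. Rarres2 (chemerin) stood at 40.5, 121 and 111 CPM against 5.76, 45.6 and 30.8 in other nuclei and was the 1 of them that also passed 2-fold over other nuclei in all 3 libraries. Of 22 receptors none was higher and 1 was lower. The list's medians were -0.74 and -0.39. Of 21 TGF-beta and BMP genes Tgfb1 was higher and the latency protein Ltbp1 lower. Of 25 transcription factors Klf4 was higher and Foxp2 lower, the latter at 535, 148 and 252 CPM. Wnt4 was the 1 higher gene of 7 measured Wnt genes. Of 13 lipid handling genes Apoe was higher, at 16.4, 456 and 187 CPM against 19.1, 570.4 and 222 in other nuclei, and Abca8 and Abcc9 were lower. Of 15 matrix proteases and inhibitors Timp1 was higher and Adamts12 lower.

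Libraries 3 and 4 were then compared with each other. Of 8129 genes 80 (0.984%) were at least 2-fold higher in library 4 and 63 (0.775%) lower, with a median of all genes of -0.01. These counts were 163 and 173 after thinning and 234 and 218 with free RNA subtracted. Pla2g2a was 4.05-fold (3.42 to 4.82) higher in library 4. A Pla2g2a UMI was seen in 14.4, 12.9 and 38.9% of C7/Scara5 nuclei, and in 11.7, 6.61 and 24.4% after thinning, against 0.66, 0.474 and 1.67% of thinned cardiomyocyte-marked nuclei. Library 4 thus held the highest Pla2g2a level and library 3 the lowest. Of 12 glucocorticoid response genes 3 were higher in library 4 and none lower. Tsc22d3 (GILZ), a classical target of the glucocorticoid receptor, stood at 30.8, 44.5 and 105 CPM, 2.36-fold (1.75 to 3.2) higher in library 4 than in library 3, and Dusp1 at 114, 34.2 and 78.7 CPM. Cebpd, a factor of the acute phase, stood at 82.5, 79.3 and 175 CPM, and the interferon-induced Usp18 at 28.2, 20.5 and 64.1 CPM. Hbb, a haemoglobin gene of red cells, headed the genes of library 4, at 3.34, 196 and 637 CPM against 6.94, 210.1 and 532 in other nuclei. Aox1, another aldehyde oxidase, stood at 184, 41.1 and 124 CPM. Genes lower in library 4 included Sema3c, at 158, 371 and 153 CPM, and Tnfrsf11b (osteoprotegerin), at 19.3, 53.6 and 19.4 CPM. Nfya, which encodes a subunit of the CCAAT-binding NF-Y, was the lowest of library 4 by the naming rule, at 30.8, 30.2 and 7.77 CPM, or 8 UMIs in that library.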

How the data were processed

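Single nuclei of rat heart were sequenced by a droplet method, and the authors deposited 1 matrix of raw UMI counts for all libraries. Its file header names cellranger 5.0.1, while the submitters' processing notes name Cell Ranger 6.1.1, Seurat and rn7. The annotation is not settled, since 6776 of 32623 features carry AABR contig names. Barcodes with at least 500 UMIs, at least 300 genes and at most 10% mitochondrial UMIs were kept. The rule for the nuclei was applied to libraries 1, 3 and 4, counts were summed per library and set, and log2 ratios of (CPM + 10) were called at 2-fold for genes with a mean of at least 20 CPM. With 1 library per sample no test across samples exists. The nuclei, the 22 gene lists, the 13 marker sets and the rules were chosen with earlier results of these data known. Of 560 list symbols, 19 were not found and are not analysed here, and a few genes that these rules name are not reported here.

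Named genes were the 24 highest and 8 lowest against other nuclei by their smallest difference over libraries, the 10 highest and 10 lowest of each library against the nearer of the other libraries, and the 10 highest and 10 lowest against activated fibroblasts. They needed at least 30 UMIs in the higher set and a gene symbol, could not be 1 of the 11 rule genes and, between libraries, had to be at least as high in C7/Scara5 nuclei as in other nuclei where they were high. List genes were described as well, by the highest and lowest members of each list and by role. Alternatives were median-of-ratios scaling, a pseudocount of 1 CPM, no filter on low levels, thinning to 800 UMIs, stricter rules, mixed nuclei left out and subtraction of free RNA. Leaving out each library in turn was chosen after seeing the data. The steps were tested on simulated data. Python 3.11.15, numpy 2.4.6, scipy 1.17.1 and pandas 2.3.3 were used.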

Additional observations from a re-analysis of the deposited data

Results flagged for a closer look

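Library 2, which is in none of the comparisons, also held nuclei that met the rule. They numbered 193 of 14603 kept nuclei, or 1.32% (1.14 to 1.52%), a lower share than in libraries 1, 3 and 4, and activated fibroblast nuclei there numbered 1902 (13.02%). In these nuclei Dcn stood at 803 CPM against 225 CPM in other nuclei and Abca8a at 709.9 CPM. Timp1 stood at 256 CPM against 224 CPM in other nuclei, and Aox3 at 52.0 CPM.

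For Slc7a8, an amino acid transporter, the difference between C7/Scara5 nuclei and other nuclei had opposite signs in different libraries. Slc7a8 had a log2 ratio of 1.22 in library 1, -1.01 in library 3 and -0.22 in library 4. The difference between libraries was not tested, since each library is 1 sample.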

How the results depend on the processing

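Of 107 alternative values of the main counts and shares, 78 stayed within the limits set for a stable value and 29 moved beyond them. Leaving out library 3 changed the count of genes higher than in other nuclei from 196 to 307 and the count of lower genes from 137 to 287, and against activated fibroblasts it changed 110 to 203 and 35 to 214. The 137 lower genes became 228 without mixed nuclei and 253 with a pseudocount of 1 CPM, which also made the 35 genes 86. Between libraries, the genes lower in library 4 than in library 1 went from 152 to 244 with a pseudocount of 1 CPM, 278 with free RNA subtracted and 260 after thinning. Those higher in library 4 than in library 3 went from 80 to 155, 234 and 163 in the same order, and those lower from 63 to 112, 218 and 173, or to 106 with no filter. The share of C7/Scara5 nuclei in library 1 went from 21.4% to 19.4% with a minimum of 1000 UMIs, 14.7% with a rule of 5 UMIs from 3 genes, 19.7% without Dlg2, 13.8% without mixed nuclei and 19.6% after thinning. In library 3 it went from 3.49% to 2.86% with the stricter rule, 3.16% without Dlg2 and 2.87% without mixed nuclei. In library 4 it went from 5.40% to 6.18, 4.78, 4.62 and 4.23% with 1000 UMIs, the stricter rule, no Dlg2 and no mixed nuclei. The order of the 3 shares was kept in each. The median of the neural list against other nuclei in library 4 became -0.051 with no filter. With free RNA subtracted, the log2 ratios of Actn1 became -0.87 and -0.076 for libraries 3 and 4 over library 1. The causes of these shifts were not tested. No paired analysis was possible because each library is a single sample with no replicate number. Counting error limits the rarer values, since library 4 held 352 C7/Scara5 nuclei.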

Other observations

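Several of the 24 genes that set the C7/Scara5 nuclei apart from other nuclei encode surface or signalling proteins. Slc43a3, a nucleobase transporter, stood at 467, 159.6 and 373 CPM against 41.7, 30.3 and 30.2 in other nuclei and at 39 and 45.2 CPM in activated fibroblasts of libraries 3 and 4. Tmeff2, a membrane protein with follistatin domains, stood at 952, 856 and 871 CPM against 77.1, 225 and 122, and Pcsk6, a convertase of TGF-beta family precursors, at 538, 391 and 459 CPM against 155, 106 and 86.5. The secreted proteins Spon1 and Itgbl1 stood at 842, 659 and 912 and at 1338, 754 and 714 CPM. Zfp385d, a zinc finger protein, stood at 1251, 607 and 741 CPM against 182, 118 and 112. Tmeff2 and Spon1 varied by less than 1.5-fold between the 3 libraries, while Slc43a3 was lowest in library 3.

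Among genes lowest in library 3, Herc6, an interferon-induced ubiquitin ligase, stood at 187, 45.6 and 157 CPM in C7/Scara5 nuclei, and Npffr2, a neuropeptide receptor, at 71.7, 18.2 and 54.4 CPM. In other nuclei Herc6 stood at 163, 34.9 and 120.5 CPM and Npffr2 at 6.15, 2.5 and 2.39 CPM. Svep1, a large adhesion protein of the matrix, was among the lowest of library 4, at 68.4, 61.6 and 35 CPM against 5.82, 21.7 and 13.5 in other nuclei.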
